A study of Mus musculus with 2 samples.

Results

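The genes described here are those of 5 hormone-responsive nuclear receptors and the estrogen receptor, together with 3 of their classical target genes, in apoptotic osteoblasts from old and from young mice. They were Nr3c1, which encodes the glucocorticoid receptor, its targets Fkbp5 and Tsc22d3, the vitamin D receptor gene Vdr and its target Cyp24a1, the retinoid X receptor gene Rxra, the retinoic acid receptor genes Rara and Rarg, and the estrogen receptor gene Esr1. The 9 genes were picked by symbol out of the 55487 genes of the deposited expression table, and each symbol had 1 identifier. Of the 9, 8 averaged 1 FPKM or more across the libraries and are called measured below, and Cyp24a1 had no reads in either. FPKM is the number of fragments of a gene scaled to its length and to the size of the library.

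The study asked how the mRNA of dying osteoblasts differs with age, and it holds 1 library of old and 1 of young apoptotic osteoblasts. Both came from mouse bone pieces whose adherent cells were passaged 3 times as bone marrow mesenchymal stem cells, kept in osteogenic medium for 3 days and killed with ultraviolet light for 0.5 h, after which more than 90% stained with Trypan Blue, the dye for leaky membranes. The labels carry a treatment entry of day 5 for the old and day 0 for the young library, so that day and age cannot be told apart. They give no strain, no age in weeks and no number of animals, and the sources used here do not name the hormones in the osteogenic medium. With 1 library per age no test was possible and no p-value is given; each ratio of FPKM is old over young, and the bracket after it is a 95% interval for the counting of reads alone.

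Nuclear receptors are transcription factors that are switched by small fat-soluble hormones. The glucocorticoid receptor waits in the cytoplasm on Hsp90 chaperones and moves to the nucleus when cortisol or corticosterone binds, whereas the vitamin D and retinoic acid receptors sit on DNA as pairs with a retinoid X receptor. In bone, calcitriol (the active form of vitamin D) acts on osteoblasts to steer mineral and osteoclast formation, excess glucocorticoid lowers bone formation, and estrogen protects bone mass.

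The letters these receptors read are short hexamers, and a few RefSeq promoter windows (GRCm38.p6, 250 bases before to 50 bases after a gene's start) are shown to make them concrete. Vdr is shown because it had the largest ratio among the 9 genes, with its GC boxes (GGGCGG, the word bound by Sp1-type factors) in capitals. Rarb and Cyp26a1 are shown because they were the listed genes whose windows held a direct repeat spaced by 5 bases (DR5), the classical retinoic acid response element, and Sgk1 because its window held the full glucocorticoid palindrome (AGAACA and TGTTCT around 3 free bases), in capitals in each case.
Vdr, chr15:97908247-97908546, minus strand: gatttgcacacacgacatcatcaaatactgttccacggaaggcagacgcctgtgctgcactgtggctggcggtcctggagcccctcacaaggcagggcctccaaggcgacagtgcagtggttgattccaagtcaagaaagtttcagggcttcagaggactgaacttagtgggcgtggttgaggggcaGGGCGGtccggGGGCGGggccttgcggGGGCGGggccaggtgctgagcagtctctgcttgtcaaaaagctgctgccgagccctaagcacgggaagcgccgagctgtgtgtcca
Rarb, chr14:16575503-16575539, minus strand: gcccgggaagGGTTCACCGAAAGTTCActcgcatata
Cyp26a1, chr19:37697766-37697802, plus strand: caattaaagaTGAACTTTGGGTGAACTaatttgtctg
Sgk1, chr10:21993691-21993725, plus strand: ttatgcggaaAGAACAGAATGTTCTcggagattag

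Both strands were searched, and a half-site of the repeats was AGGTCA, with A or G allowed at base 1 and G or T at base 3. In the Vdr window 3 GC boxes began 63, 52 and 36 bases before the start, a word that 35.7% of the 32851 promoter windows held at least once. The DR5 was in 0.0974% of all windows and the glucocorticoid palindrome in 0.00913%. None of the 15 windows of Fkbp5, Tsc22d3, Vdr, Rxra, Rara, Rarg and Esr1 held either word, nor a repeat spaced by 3 or by 2 bases or the estrogen response element ERE, an inverted repeat spaced by 3. The single hexamer AGGTCA was in 3 of these windows (Rxra, Rara and Rarg), against 16.3% of all windows. The Vdr start in RefSeq lies 2334 bases inside the end of the GENCODE gene, so the window covers 1 of the possible starts.

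Reads assigned to genes numbered 18114336 in the old library and 16333396 in the young. Osteoblast markers were present, with 7 of 9 past 1 FPKM, although Bglap, which encodes osteocalcin, had 6 reads in the old and 3 in the young library. The median log2 ratio of these 7 was −0.34, with 5 below 0. Sp7, the osteoblast transcription factor osterix, was at 28.9 FPKM in the old and 55.5 FPKM in the young library, a ratio of 0.521 [0.482 to 0.562], whereas Spp1, also on this list, was higher in the old. The part of these markers in the differences below was not tested. Markers of other cells were scarce. The 8 leukocyte markers summed to 4.69 FPKM in the old and 4.56 FPKM in the young library, nearly all of it Cd68, with Cd3e, Itgam and Adgre1 among those at 0 reads in both. Endothelial, adipocyte and erythroid markers summed to at most 0.357 FPKM per list and library, with Emcn, Cidec, Hbb-bs and Alas2 among those at 0. Over all 12561 measured genes, 2.84% were at least 2-fold apart on the log2 scale of FPKM + 1 (1.97% higher and 0.868% lower in the old library), 5078 had log2 ratios above 0, and the median log2 ratio was −0.07.

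Vdr stood out among the 9 genes, with 1.93 times as much mRNA in the old as in the young library, while the receptors for glucocorticoid and retinoid lay close to even. None of the 8 measured genes reached 2-fold on the scale of FPKM + 1, against 2.84% of all genes. Counting intervals lay above 1 for Vdr, Rara and Rxra, lay below 1 for Nr3c1 and Fkbp5, and included 1 for Rarg, Tsc22d3 and Esr1. At this depth such intervals exclude 1 for 54.1% of genes (20.5% above and 33.6% below), so they set these 2 libraries against counting error and say nothing about the ages. In bulk RNA, fewer cells that express a gene and less of its RNA per cell cannot be told apart.

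**Figure D1:**
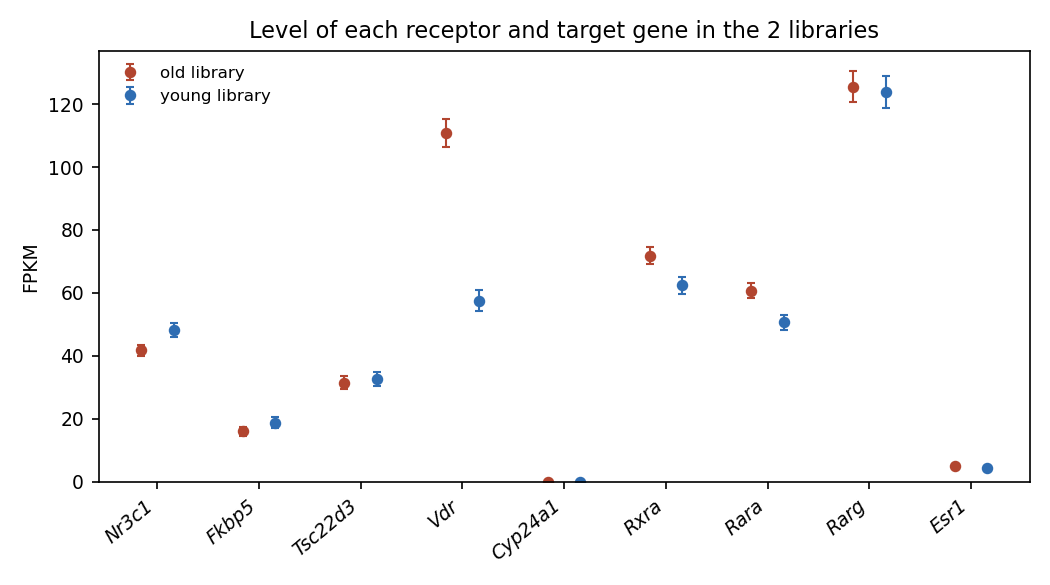
FPKM of each gene (vertical axis) in the old (red, left point) and young (blue, right point) library, with bars for exact 95% Poisson counting intervals. Vdr is at 111 FPKM in the old and 57.4 FPKM in the young library, while the points of the other genes lie close together and Cyp24a1 is at 0 in both.

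Vdr (ENSMUSG00000022479, chromosome 15, 97854425 to 97910630, GRCm38) encodes the receptor that binds calcitriol. It was at 111 FPKM on 2361 reads in the old library and at 57.4 FPKM on 1103 reads in the young library. The old library was thus the higher one, with a ratio of 1.93 [1.80 to 2.07] and a log2 ratio of FPKM + 1 of 0.94. That ratio ranked 287 of 12561 genes and first of the 25 measured nuclear receptors. When log2 ratios were centred on the median of all genes the value of Vdr was 1.002 and it counted as 2-fold higher. None of its exon bases overlapped another gene and none of its sequence words were shared.

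Cyp24a1 (ENSMUSG00000038567, chromosome 2, 170482708 to 170497145) encodes the hydroxylase that inactivates calcitriol, and it is the target most strongly induced by the vitamin D receptor in many tissues. It had 0 reads in the old and 0 reads in the young library. A floor of 3 reads stands at 0.0465 FPKM in the old and 0.0516 FPKM in the young library, and the exact 95% Poisson upper limits are 0.0572 FPKM in the old and 0.0634 FPKM in the young, so its level was not detectable at this depth in either. Vdr mRNA was abundant in 2 libraries in which the mRNA of its best-known target was not found.

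The enzymes that make calcitriol were low. Cyp27b1, which carries out the last activating step, was at 0.559 FPKM on 18 reads in the old library and at 2.14 FPKM on 62 reads in the young library. It was lower in the old library by a ratio of 0.262 [0.146 to 0.448]. Of the 2 measured vitamin D metabolism genes it alone was past 2-fold, against 0.868% lower over all genes. Cyp27b1 averaged 1.35 FPKM and passed the filter only through the young library, so its being counted is not independent of its direction. Its log2 ratio of −1.01 was only just past the threshold. Centring on the median of all genes raises log2 ratios by 0.065, which takes Cyp27b1 back under 2-fold. Cyp2r1, the main first-step hydroxylase of liver, had 0 reads in both, as did Gc, the vitamin D carrier of blood. The other measured gene, the disulfide isomerase gene Pdia3, was at 771 FPKM in the old and 710 FPKM in the young library.

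Of 16 genes listed as vitamin D receptor targets, 5 were measured, 1 was 2-fold higher in the old library and none was lower (1.97% and 0.868% over all genes), with a median log2 ratio of 0.50 against −0.07 over all genes. The 2-fold gene was Spp1, the bone matrix protein osteopontin, at 1732 FPKM in the old and 224 FPKM in the young library, and another gene overlaps 18.8% of its exon bases. Vdr is itself on this list. Lrp5, a Wnt co-receptor, had a ratio of 1.05 [0.997 to 1.10], and Cdkn1a, the p21 cell cycle inhibitor, one of 0.904 [0.878 to 0.931]. Bglap2, a second osteocalcin gene, was at 1.88 FPKM on 16 reads in the old and at 1.04 FPKM on 8 reads in the young library, and 82.4% of its words are shared. The list median was 0.28 without Spp1, 0.063 without genes that share sequence or exon bases and 0.042 with no filter. Tnfsf11 (the osteoclast cytokine RANKL), Fgf23, Trpv6 and S100g had 0 reads in both libraries.

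Nr3c1 (ENSMUSG00000024431, chromosome 18, 39410545 to 39519421) encodes the glucocorticoid receptor. It was at 41.7 FPKM on 2001 reads in the old library and at 48.2 FPKM on 2084 reads in the young library. The old library was slightly lower, with a ratio of 0.866 [0.814 to 0.921]. Nr3c2, the mineralocorticoid receptor gene, whose protein also binds corticosterone, had 3 reads in the old and 0 in the young library.

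Fkbp5 (ENSMUSG00000024222, chromosome 17, 28399094 to 28517527) encodes a cochaperone that is induced by glucocorticoid and in turn lowers the receptor's affinity for hormone. It was at 15.9 FPKM on 507 reads in the old library and at 18.7 FPKM on 537 reads in the young library, a ratio of 0.851 [0.753 to 0.963]. Tsc22d3 (ENSMUSG00000031431, chromosome X, 140539528 to 140600659), which encodes the anti-inflammatory leucine zipper protein GILZ, was at 31.5 FPKM on 930 reads in the old and at 32.5 FPKM on 865 reads in the young library. Its ratio of 0.969 [0.883 to 1.06] was within counting error of even. After centring on the median of all genes its log2 ratio was 0.02 in place of −0.04, so its direction depends on the scaling. Both targets were thus well covered by reads and differed little between the libraries.

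**Figure D2:**
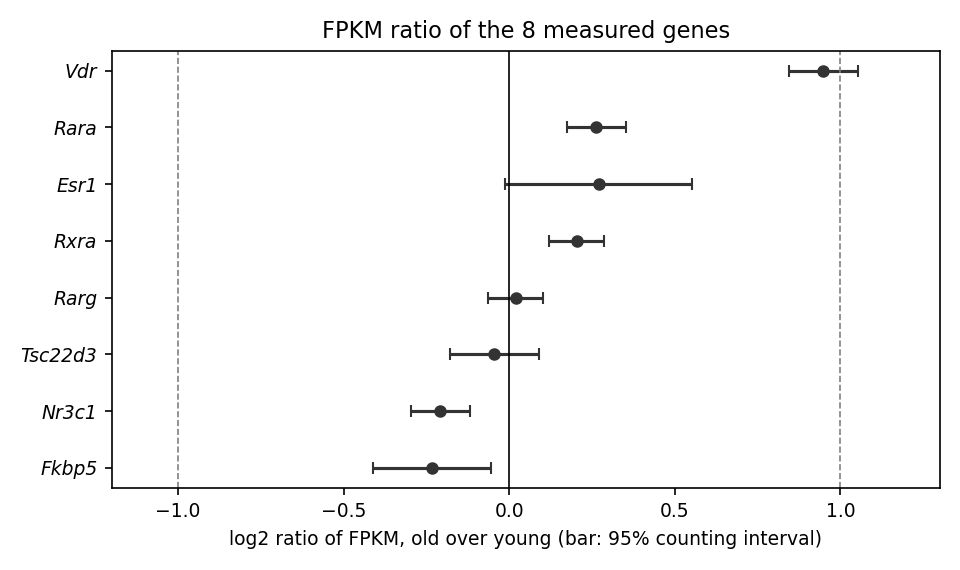
Each point is the log2 of a gene's FPKM ratio (old over young), shown for the 8 genes with reads, with 95% counting intervals (bars); dashed lines mark 2-fold and the solid line marks even. Vdr lies at 0.95 with an interval that reaches across the 2-fold line, and the other 7 lie between −0.23 and 0.27.

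Among 22 genes listed as glucocorticoid-induced, 15 were measured and none was 2-fold apart, against 2.84% over all genes. The median log2 ratio was 0.02, against −0.07 over all genes. Of the 15, 9 had log2 ratios above 0 and 6 below, against 5078 of 12561 above 0 over all genes. Of the 15 listed genes, 5 lay at log2 ratios of 0.67 to 0.87 and the others between −0.22 and 0.19. That grouping was made after their values were seen. Over all 12561 measured genes the 95th percentile of the log2 ratio was 0.62. Pdk4, a kinase that shuts pyruvate out of oxidation, was at 70.6 FPKM in the old and 38.1 FPKM in the young library, a ratio of 1.85 [1.71 to 2.01]. Errfi1, an inhibitor of the EGF receptor, was at 13.7 FPKM in the old and 7.04 FPKM in the young library, a ratio of 1.94 [1.67 to 2.27]. The palindrome printed above is a match of letters in the window of Sgk1, the serum- and glucocorticoid-induced kinase, and receptor binding was not measured. Sgk1 was at 88.7 FPKM on 2193 reads in the old and at 49.2 FPKM on 1096 reads in the young library. Its ratio was 1.80 [1.68 to 1.94], near those of Pdk4 and Errfi1.

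Mt2, a metallothionein, and Bcl6, a transcriptional repressor, were the other genes of the higher 5, with log2 ratios of 0.77 and 0.67, and Mt2 is uncertain because 73.5% of its exon bases overlap other genes. The clock gene Per1, the Krüppel-like factor gene Klf9 and Nfkbia, the NF-kB inhibitor, had ratios of 0.885 [0.807 to 0.969], 0.864 [0.778 to 0.960] and 0.888 [0.817 to 0.966], close to that of Fkbp5. Dusp1, a phosphatase that switches off MAP kinases, had a ratio of 1.14 [1.03 to 1.26]. These genes also answer to stress, growth factor and nutrient signals, and a part for those signals was not tested. Klf15, Zbtb16, Tat and Pck1 had 0 reads in both libraries.

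All 12 genes of the receptor's chaperone cycle were measured and none was 2-fold apart, against 2.84% over all genes. Their log2 ratios ran from −0.22 to 0.14, with a median of −0.09 against −0.07 over all genes. Hsp90ab1, the constitutive Hsp90, was at 2872 FPKM in the old and 2682 FPKM in the young library. Fkbp4, which competes with Fkbp5 for the receptor complex and favours its transport to the nucleus, was at 138 FPKM in the old and 147 FPKM in the young library. The FPKM level of Fkbp4 was 8.66 times that of Fkbp5 in the old library and 7.86 times in the young. The largest differences after Fkbp5 were those of Dnajb1 (ratio 0.861), Ptges3 (0.888) and Hsp90aa1 (0.893). The last 2 are uncertain, since 23.2% of the words of Ptges3 and 61.0% of those of Hsp90aa1 are shared.

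Of 11 genes for corticosteroid metabolism and transport, 4 were measured and none was 2-fold apart (2.84% over all genes), with a median of 0.24. That median was 0.045 with no filter and 0.44 without genes that share sequence or exon bases. Hsd11b1, the reductase that regenerates active glucocorticoid inside cells and that is known to increase in ageing bone, fell under the filter. It was at 0.994 FPKM on 21 reads in the old library and at 0.105 FPKM on 2 reads in the young library, a ratio of 9.47 [2.31 to 83.3]. H6pd, which supplies that enzyme's cofactor, was at 12.4 FPKM in the old and 8.13 FPKM in the young library, a ratio of 1.53 [1.34 to 1.75]. Hsd11b2, which inactivates glucocorticoid in kidney, had 0 reads in both. Srd5a1 and Srd5a3, steroid reductase family genes, had log2 ratios of −0.48 and 0.31, and Abcb1b, an efflux pump that can export steroids, one of 0.16.

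The retinoid receptors were abundant, Rarg being rank 1 of the 25 measured nuclear receptors by FPKM in the old and rank 2 in the young library. Rarg (ENSMUSG00000001288, chromosome 15, 102234938 to 102257517) was at 125 FPKM on 2541 reads in the old library and at 124 FPKM on 2261 reads in the young library. Its ratio of 1.01 [0.957 to 1.07] was within counting error of even. Rara (ENSMUSG00000037992, chromosome 11, 98927818 to 98974942) was at 60.7 FPKM on 2396 reads in the old and at 50.6 FPKM on 1801 reads in the young library, a ratio of 1.20 [1.13 to 1.28]. Rarb, a retinoic acid receptor gene and a direct retinoic acid target through the DR5 printed above, had 8 reads in the old and 0 in the young library. The 95% counting interval of its ratio began at 1.54 and has no upper end, and other genes overlap 38.4% of its exon bases. Rarg made up 67.3% of the summed FPKM of the 3 retinoic acid receptor genes in the old library and 71.0% in the young.

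Rxra (ENSMUSG00000015846, chromosome 2, 27676440 to 27762957), the partner of the vitamin D and retinoic acid receptors, was at 71.9 FPKM on 2701 reads in the old library and at 62.4 FPKM on 2115 reads in the young library. It was higher in the old library by a ratio of 1.15 [1.09 to 1.22], less than for Vdr. Rxrb was at 47.3 FPKM in the old and 52.4 FPKM in the young library, and Rxrg had 0 reads in both. Summed over the RXR genes, the level was 119 FPKM in the old and 115 FPKM in the young library. The FPKM level of Vdr was 1.54 times that of Rxra in the old library and 0.920 times in the young. By reads, which are not scaled to length, Vdr was below Rxra in both, with 2361 in the old and 1103 in the young library. Which of the 2 genes is higher in the old library thus depends on the length used.

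Some enzymes that set the supply of retinoic acid differed by more than its receptors did. Of 21 genes for retinoid synthesis, transport and breakdown, 11 were measured, 2 were 2-fold higher in the old library and none was lower, against 1.97% higher and 0.868% lower over all genes. Of the 11, 9 had log2 ratios above 0, against 5078 of 12561 over all genes, and the median was 0.32 against −0.07. That median was 0.12 with no filter and 0.19 with a pseudocount of 5. Aldh1a3, a dehydrogenase that makes retinoic acid from retinal, was at 16.1 FPKM on 431 reads in the old library and at 3.07 FPKM on 74 reads in the young library. Its ratio was 5.25 [4.10 to 6.81], and its log2 ratio of FPKM + 1, 2.07, ranked 29 of 12561 genes. Cyp26b1, a hydroxylase that breaks retinoic acid down and is itself retinoic acid induced, was at 14.99 FPKM on 1002 reads in the old and at 6.37 FPKM on 384 reads in the young library, a ratio of 2.35 [2.09 to 2.65].

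Crabp2, which carries retinoic acid to its nuclear receptors, was at 70.1 FPKM in the old and 37.5 FPKM in the young library, a ratio of 1.87 [1.68 to 2.09]. Aldh1a1, a relative of Aldh1a3, was at 2.72 FPKM on 71 reads in the old and at 1.06 FPKM on 25 reads in the young library. A gene for synthesis, Aldh1a3, and one for breakdown, Cyp26b1, were thus both past 2-fold, and retinoic acid itself was not measured. The 2 measured genes with log2 ratios below 0 were Dhrs3, a reductase that returns retinal to retinol, with a ratio of 0.721 [0.552 to 0.941], and Rdh10, the retinol dehydrogenase of the first step, with a log2 ratio of −0.15. Aldh1a2, Lrat, Rbp4 and Crabp1 had 0 reads in both libraries.

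**Figure D3:**
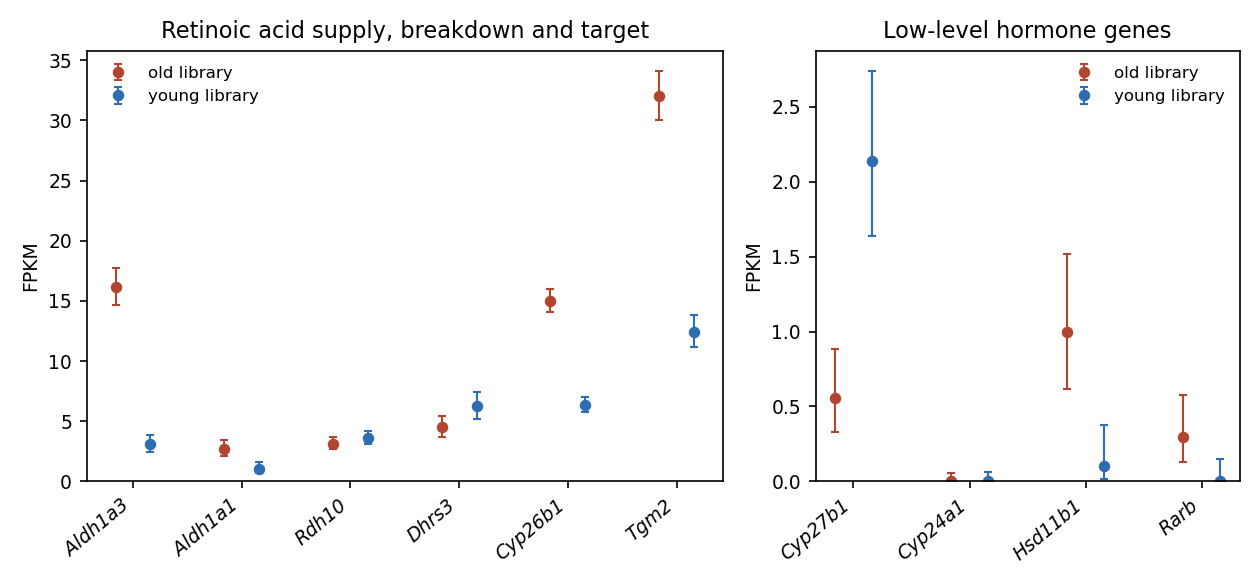
FPKM in the old (red, left point) and young (blue, right point) library with exact 95% Poisson counting intervals, for genes of retinoic acid supply, breakdown and response (left panel) and for hormone genes of low level (right panel, own scale). Aldh1a3 is at 16.1 FPKM in the old and 3.07 FPKM in the young library, while Cyp27b1 is at 0.559 FPKM in the old and 2.14 FPKM in the young.

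Of 16 genes listed as retinoic acid targets, 8 were measured, 2 were 2-fold higher in the old library and none was lower, against 1.97% higher and 0.868% lower over all genes. Of these 8, 4 had log2 ratios above 0 and 4 below, and the median was 0.05. Besides Cyp26b1 the 2-fold gene was Tgm2, the tissue transglutaminase, at 32.0 FPKM in the old and 12.4 FPKM in the young library, a ratio of 2.57 [2.27 to 2.92], and other genes overlap 21.8% of its exon bases. Dhrs3, which retinoic acid also induces, went the other way. The low-level Cyp26a1, whose DR5 is printed above, had 16 reads in the old and 6 in the young library, a ratio of 2.40 [0.894 to 7.50] that counting error does not separate from even. With the filter at a mean of 10 FPKM the list median was 0.89, so it depends on which of its genes are counted.

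Esr1 (ENSMUSG00000019768, chromosome 10, 4611593 to 5005614) encodes estrogen receptor alpha. It was at 5.05 FPKM on 246 reads in the old library and at 4.19 FPKM on 184 reads in the young library. Its ratio of 1.21 [0.992 to 1.47] was within counting error of even. Esr2, the gene of estrogen receptor beta, was at 1.01 FPKM in the old and 0.625 FPKM in the young library. Pgr, the progesterone receptor gene and a classical estrogen target, had 0 reads in both.

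Of 13 listed estrogen genes 12 had an identifier and 6 were measured. None of the 6 was 2-fold apart, against 2.84% over all genes, and their median was 0.35. That median was 0.027 with no filter, 0.21 with the filter at 10 FPKM and 0.50 without genes that share sequence or exon bases. Gper1, a membrane receptor proposed to bind estrogen, was at 3.899 FPKM in the old and 2.26 FPKM in the young library. Hsd17b7 and Hsd17b12, enzymes of steroid and lipid reduction, had ratios of 1.46 [1.29 to 1.65] and 1.42 [1.32 to 1.53]. Hsd17b4 had a ratio of 1.16 [1.06 to 1.27].

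FPKM is scaled to gene length, so the receptors could be ranked within a library. For most values that length matched the mean annotated transcript length, and counting intervals do not cover error in it. In the old library the order was Rarg, Vdr, Rxra, Rara, Nr3c1 and Esr1, and no neighbours overlapped in their counting intervals. In the young library the order was Rarg, Rxra, Vdr, Rara, Nr3c1 and Esr1, with Rxra and Vdr overlapping and Rara and Nr3c1 overlapping. Among the 25 measured nuclear receptors Vdr ranked 2 by FPKM in the old library and 6 in the young, while Nr3c1 ranked 12 in the old and 10 in the young. The FPKM level of Vdr was 2.66 times that of Nr3c1 in the old library and 1.19 times in the young. By reads, which are not scaled to length, the old library had 2701 for Rxra, 2541 for Rarg, 2396 for Rara, 2361 for Vdr and 2001 for Nr3c1. The young library had 1103 reads for Vdr and 2084 for Nr3c1, so the order depends on the length used.

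The coregulators that these receptors share were close to even. Of 22 coactivators and corepressors, 21 were measured and none was 2-fold apart, against 2.84% over all genes. Their log2 ratios ran from −0.38 to 0.43, with a median of −0.01. Med1, the Mediator subunit that receptors contact, was at 39.2 FPKM in the old and 51.5 FPKM in the young library. The arginine methyltransferase gene Prmt1 and the coactivator gene Ncoa7 had log2 ratios of 0.27 and −0.25.

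**Figure D4:**
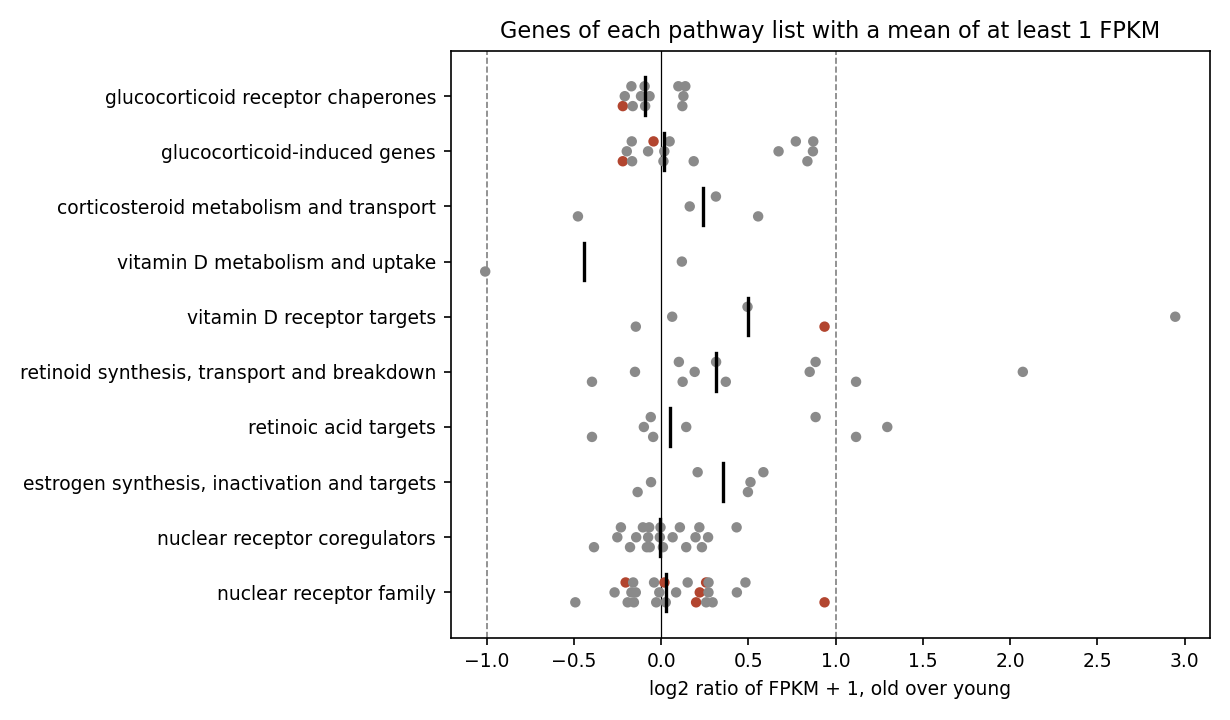
Log2 ratio of FPKM + 1, old over young, of each measured list gene (points; red for the receptor and target genes of this report, grey for others), by list, with the list median (black bar) and 2-fold (dashed lines). Points past the dashed lines are Spp1, Aldh1a3, Cyp26b1 and Tgm2 on the right and Cyp27b1 on the left, with Cyp26b1 in 2 lists.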

How the data were processed

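RNA sequencing gave 1 FPKM value per gene in 1 old and 1 young library. FPKM values were made and deposited by the authors; fastp, STAR, HTSeq, edgeR and mm10 are listed in the submitters' processing notes, without roles or versions, and the sources used here do not give annotation release, filters or strand. Symbols (55141 of 55487 genes) and positions came from GENCODE M21 (GRCm38, the assembly of mm10), and promoters from RefSeq.

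Read numbers were worked out from the deposited FPKM. With the mean annotated transcript length as gene length, 97.6% of values above 0 were whole reads within 0.01 in each library. For Rxra and a few other genes the ratio of the libraries was matched to whole reads. Ratio intervals are exact Clopper-Pearson intervals of the old library's share of reads, and level intervals are exact Poisson. PCR copies are not independent, so intervals and the floor of 3 reads cover counting error only. All 26 housekeeping genes checked had at least 11.97 FPKM. A 0 was read as 0 assigned reads. That check cannot tell such a 0 from reads lost to shared sequence or overlapping exons.

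Log2 ratios use a pseudocount of 1, which understates low genes, a filter at a mean of 1 FPKM, and 2-fold as the threshold. Shared sequence was the share of a gene's 50-base words, taken every 25 bases, found in transcripts of other genes. The code was tested on simulated counts. Named genes are the 9 members, the most abundant and most different nuclear receptors, and up to 4 genes per list with the largest differences or past 2-fold, plus pathway genes with few reads; Per1, Klf9, Nfkbia, Dusp1, Bcl6, Lrp5, Rdh10, Hsp90ab1, Fkbp4, Rxrb, Esr2 and Ncoa7 outside these limits were chosen after their values were seen. A few list genes are not reported here by name. Members and lists were chosen with earlier results of these data known. Alternatives tried were pseudocounts of 0.1 and 5, filters, scalings, summed identifiers and lists without shared genes. Python 3.11.15, numpy 2.4.6, pandas 2.3.3, scipy 1.17.1 and matplotlib 3.10.9 were used.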

Additional observations from a re-analysis of the deposited data

How the results depend on the processing

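No paired analysis was possible because there is 1 library per age. The log2 ratios of the 8 measured genes moved by less than their counting intervals under all 6 alternatives run for them, and that of Vdr ran from 0.89 to 1.002. Summing identifiers, among these 6, could not change any value because each symbol had 1 identifier. The count of the 9 genes past 2-fold was 1 (Vdr) in place of 0 after centring on the median of all genes. Genes 2-fold higher and lower numbered 248 and 109 as reported. With 0.1 as pseudocount they numbered 408 and 236, with 5 they numbered 101 and 20, and with the filter raised to 10 FPKM 106 and 27. The median of the vitamin D receptor targets was 0.79 with 0.1 and 0.19 with 5 as pseudocount, 0.042 with no filter, 0.063 without genes that share sequence and 0.28 without Spp1, the last chosen after seeing the data. With no filter the medians were 0.045 for corticosteroid metabolism, 0 for vitamin D metabolism, 0.12 for the retinoid enzymes and 0.027 for the estrogen genes. With the filter raised to 10 FPKM they were 0.12 for vitamin D metabolism, which then holds Pdia3 alone, 0.89 for the retinoic acid targets and 0.21 for the estrogen genes. Without genes that share sequence they were 0.44 for corticosteroid metabolism and 0.50 for the estrogen genes. The vitamin D metabolism median, −0.44 with a pseudocount of 1, was −0.82 with 0.1 and −0.12 with 5 as pseudocount. Genes with few reads, such as Cyp27b1, Hsd11b1 and Rarb, are limited by depth.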

Other observations

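Of the 49 mouse nuclear receptor genes, with the steroid, vitamin D and retinoid receptors above included, 25 averaged 1 FPKM or more. None of the 25 was 2-fold apart, against 2.84% over all genes, and 14 of the 49 had 0 reads in both libraries. Thra, the gene of thyroid hormone receptor alpha, was at 109 FPKM in the old and 131 FPKM in the young library, a ratio of 0.830 [0.782 to 0.881]. Nr4a1, an immediate-early orphan receptor, had the lowest log2 ratio of the measured family, with 24.9 FPKM in the old and 35.5 FPKM in the young library. Nr1d1, the clock repressor REV-ERB alpha, was at 71.6 FPKM in the old and 50.9 FPKM in the young library, and Nr2f2, the orphan receptor COUP-TFII of mesenchymal cells, at 49.4 FPKM in the old and 36.3 FPKM in the young. Nr1h2, the ubiquitous liver X receptor gene, was at 74.8 FPKM in the old and 84.3 FPKM in the young library, and Nr2f6 at 78.5 FPKM in the old and 80.1 FPKM in the young.

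Some retinoid and steroid genes under the filter also had more reads in the old library, and they are named here after their values were seen. Dhrs9, a retinol dehydrogenase gene, had 71 reads in the old and 9 in the young library, and Cyp26c1, a further retinoic acid hydroxylase gene, had 22 in the old and 2 in the young. Greb1, an estrogen-induced gene, had 35 reads in the old and 10 in the young library, a ratio of 3.16 [1.53 to 7.15], and the efflux pump gene Abcb1a had 26 in the old and 4 in the young, although 22.3% of its words are shared.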
